A study of Mus musculus with 8 samples.

Results

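The microRNA (miRNA) repertoire of resting wild-type macrophages was described from 2 small RNA libraries of unstimulated bone marrow-derived macrophages, out of 8 libraries in the series. These macrophages were grown from mouse marrow for 3 days in supernatant of CMG14-12 cells, with M-CSF activity equal to 20 ng/ml. The libraries were chosen by their label, wild type without stimulation, and stand in 2 deposited tables of different layout. The first table gives CPM (counts relative to all miRNA reads of the library) for 452 mature miRNAs with their 5p and 3p arms, of which 405 had at least 1 read in this library. The second gives values taken for RPKM (counts per length of the hairpin, relative to the library's reads) for 371 miRNA hairpin genes, so the libraries are called here the CPM library and the RPKM library.

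The wild-type label names no floxed allele and no Cre. Each table also holds 1 library each of unstimulated RBP-J knockout cells, of wild-type cells after 24 hours of TNF and of knockout cells after 24 hours of TNF. The knockout is labelled Rbpjf/f; LysM Cre, a deletion driven by the myeloid LysM promoter. All mice were of a mixed C57BL/6 and 129 background with over 90% C57BL/6, and the labels do not say how many animals gave each library. The other libraries of the CPM table serve here only to mark rows in which the unstimulated wild-type library stands apart. There is 1 library per group and table, so values are given with no test between groups.

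The CPM library held 321326 reads, of which the listed miRNAs took 99.98%, so that 1 read was worth 3.11 CPM. The RPKM library held 21712258 reads, of which the listed hairpins took 49.98% (95% Wilson interval 49.96% to 50.001%). These totals are not of like kind, and the listed reads were 321253 in the CPM library and 10851758 in the RPKM library. Shares below are shares of the listed reads of each library, with 363 of the 371 hairpins counted in the RPKM library, those with a known length. Intervals cover counting error only. Fewer cells of a type and less RNA per cell cannot be told apart in such bulk libraries.

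A miRNA is cut from a hairpin precursor that can yield a mature strand of about equal length from either arm, 5p or 3p. The strand loaded into an Argonaute protein guides it to messenger RNAs that match its seed, bases 2 to 8 of the mature strand, and thereby lowers their stability and translation. Mature strands with the same seed form a family with overlapping targets, and hairpins that lie close together are often cut from a shared primary transcript. Macrophages are known for miR-223 and miR-142 of the myeloid and blood lineage, for miR-21, and for miR-146 and miR-155, which act in the response to inflammatory signals.

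The 10 most abundant mature miRNAs of the CPM library are shown first because they carried most of its reads. Sequences are from RefSeq (GRCm38.p6), run 5′ to 3′, and have the seed in capitals.
miR-22-3p: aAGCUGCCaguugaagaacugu
miR-27b-3p: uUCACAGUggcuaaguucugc
miR-191-5p: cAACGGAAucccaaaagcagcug
let-7f-5p: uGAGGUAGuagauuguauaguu
miR-16-5p: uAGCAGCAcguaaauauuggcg
miR-21a-5p: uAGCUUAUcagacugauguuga
miR-423-5p: uGAGGGGCagagagcgagacuuu
miR-24-3p: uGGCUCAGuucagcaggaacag
miR-26a-5p: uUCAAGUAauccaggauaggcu
miR-146a-5p: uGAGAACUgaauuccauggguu

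No seed occurs more than once among these 10 strands, so the head of the list spans 10 seed families. Of the 452 mature names, 381 had a RefSeq sequence, and these held 94.4% of the library's reads. miR-30d-5p, which followed at rank 13, had no entry in that table and is named only.

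A few miRNAs held most of the reads in both libraries, and more so in the RPKM library. In the CPM library 7 mature miRNAs held 50% of the reads, 37 held 90% and 121 held 99%. In the RPKM library 3 hairpins held 50%, 20 held 90% and 72 held 99%. The 10 most abundant features held 61.1% of the reads in the CPM library and 80.1% in the RPKM library, a mean of 70.6% ± 13.4 (SD, n = 2). These features are mature arms in the CPM library and hairpins in the RPKM library, so this SD is not a spread between replicates alone. There were 20 mature miRNAs at 1% or more in the CPM library and 15 hairpins at 1% or more in the RPKM library. At the other end, 237 mature miRNAs had 10 reads or fewer in the CPM library and together took 0.228% of its reads. Of these, 47 had no read, which allows a level of up to 9.34 CPM.

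**Figure D1:**
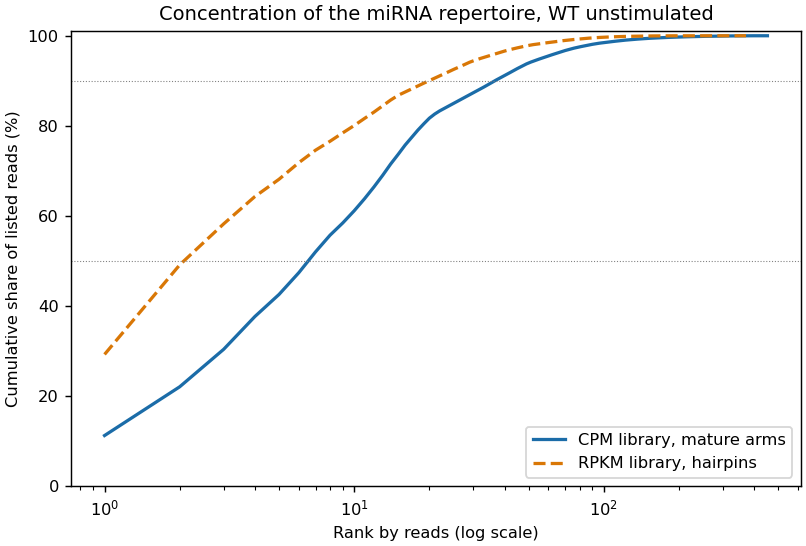
Cumulative share of listed reads (%) against rank by reads (log axis) for the unstimulated wild-type CPM library (mature arms, solid) and RPKM library (hairpins, dashed), with dotted lines at 50% and 90%. The dashed curve crosses 50% at 3 hairpins and 90% at 20, the solid curve at 7 and 37 mature miRNAs.

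miR-22-3p led the CPM library with 111702 CPM, 11.2% of reads (95% Wilson interval 11.1% to 11.3%). miR-27b-3p, whose family acts in lipid metabolism and inflammation, had 108298 CPM, and miR-191-5p had 83233 CPM. let-7f-5p, of the let-7 family that restrains growth and developmental programs, had 72779 CPM. These 4 were set apart from the next group, which began with miR-16-5p at 49152 CPM. miR-21a-5p had 48287 CPM, miR-423-5p 46302 CPM, and miR-24-3p 36949.9 CPM. miR-26a-5p at 27287 CPM, miR-146a-5p at 27029 CPM and miR-222-3p at 26752 CPM stood close together. Their intervals overlapped, since miR-26a-5p held 2.67% to 2.79% of reads and miR-222-3p 2.62% to 2.73%, so their order lies within counting error. miR-92a-3p, miR-30d-5p, miR-10a-5p, miR-146b-5p, let-7a-5p, let-7i-5p, let-7c-5p, miR-181a-5p and miR-142a-5p completed the 20 most abundant, with 12489 CPM for the last.

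In the RPKM library Mir22 again led, with 1536030 RPKM and 29.2% of reads (29.17% to 29.22%). Mir21, the gene of miR-21a, followed with 1080900 RPKM and 19.9% of reads. Mir27b had 623955 RPKM and 9.11% of reads. Mir22, Mir21 and Mir27b together thus took 58.2% of this library. Mir92-1, the copy of miR-92a in the miR-17-92 cluster, had 378669 RPKM, Mir30d 234741 RPKM, Mir146 (miR-146a) 213134 RPKM and Mir10a 167395 RPKM. Mir125a at 116098 RPKM, Mir99b at 116046 RPKM and Mirlet7f-2 at 112904 RPKM were near one another. Mir222, Mir142, Mirlet7i, Mir221, Mir148a, Mir151, Mir186, Mir27a, Mir23a and Mir30e filled the remaining places among the 20 highest RPKM values, down to 34896 RPKM.

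The libraries shared their leading miRNAs in part. With arms and hairpin copies summed per miRNA number, the 20 most abundant of each library had 11 members in common, which is 55% of either list. They were let-7f, let-7i, miR-10a, miR-142a, miR-146a, miR-21a, miR-22, miR-222, miR-27b, miR-30d and miR-92a. The 10 most abundant shared 5 (50%) and the 50 most abundant shared 36 (72%). miR-191, at rank 3 in the CPM library, has no row in the RPKM table and was not analysed there.

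Over the 118 miRNA numbers with at least 20 reads in the CPM library and a row in both tables, Spearman's rho of the shares was 0.679. This correlation is across miRNAs, not samples, and is a description. The shares lay within 2-fold for 50 of the 118 and within 4-fold for 85. For the 102 miRNAs annotated at a single locus rho was 0.739, and the median log2 ratio of the RPKM library's share over the CPM library's share was 0.047. For the 16 with 2 or more loci rho was 0.397, and the median log2 ratio was -2.31. The RPKM table lists fewer hairpins than annotated loci for 5 of these 16, so their RPKM share lacks a copy. They were let-7a (Mirlet7a-1 alone counted), let-7f (Mirlet7f-2 alone), miR-16 (Mir16-2 alone), miR-24 (Mir24-2 alone) and miR-125b (Mir125b-2 alone), and the other copies were not analysed there. The median log2 ratio was -4.46 over these 5, and -1.38 with rho 0.455 over the 11 with every copy counted.

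The widest gaps on the low side were miR-146b, miR-26a, let-7a, miR-16 and miR-1943. miR-146b held 2.14% of reads in the CPM library but 24 reads, 0.000221%, in the RPKM library, although it is annotated at a single locus. miR-26a held 2.73% of the CPM library and 0.00487% of the RPKM library. let-7a held 2.07% of the CPM library and 0.00733% of the RPKM library. miR-16 held 4.92% of the CPM library and 0.0276% of the RPKM library. The RPKM shares of let-7a and miR-16 rest on 1 of 2 hairpins each, while both hairpins of miR-26a were counted. miR-1943 was scarce in both, with 47 reads or 0.0146% of the CPM library and 40 reads or 0.000369% of the RPKM library. The first 4 were among the 20 most abundant of the CPM library and far down the RPKM library, so their level in these cells is not settled by these data. Each also has near-identical relatives or gene copies: miR-26a, let-7a and miR-16 have 2 annotated loci each, and miR-146b-5p differs from miR-146a-5p at 2 of 22 positions. The part of such copies in the gaps was not tested. Among the 102 miRNAs at a single locus, 10 had an RPKM share more than 10-fold lower and 3 more than 10-fold higher. miR-423, at a single locus, held 4.96% of the CPM library and 0.197% of the RPKM library.

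On the high side stood miR-143, miR-29a, miR-99b, miR-10b and miR-34a. miR-99b held 1.63% of the RPKM library against 0.151% of the CPM library, and miR-29a 0.538% against 0.0476%. miR-143, known from smooth muscle and other stromal cells, held 0.209% of the RPKM library and 0.00809% of the CPM library. miR-10b and miR-34a were below 0.1% in both libraries.

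**Figure D2:**
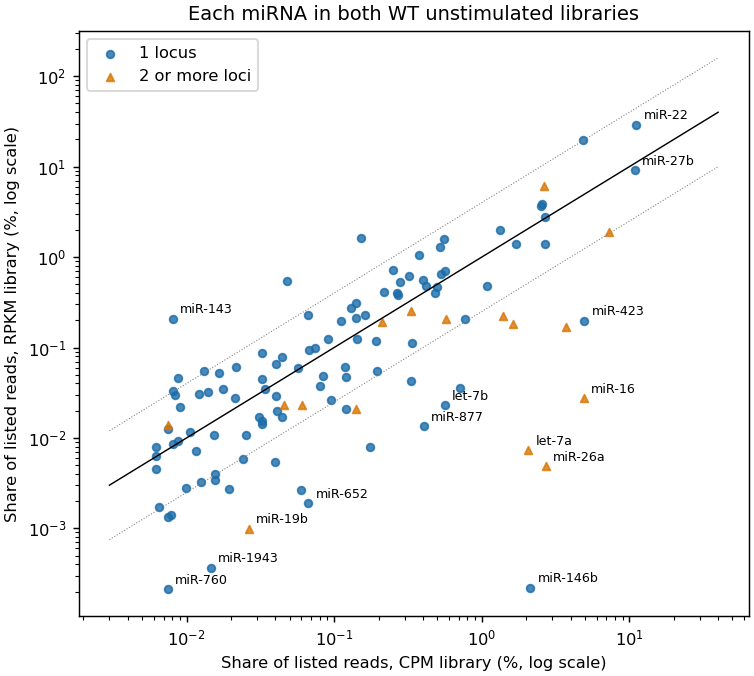
Share of listed reads (%) of each of 118 miRNA numbers in the CPM library (x axis) and the RPKM library (y axis) of unstimulated wild-type cells, both on log axes. Circles have 1 annotated locus and triangles 2 or more, the solid line marks equal shares and the dotted lines a 4-fold difference. The points of miR-146b, miR-26a, let-7a and miR-16 lie far below the lines, while miR-22 and miR-27b lie at the upper right.

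By shared seed, the let-7 family was the largest of the CPM library. Its 9 strands with the seed GAGGUAG held 14.8% of reads (95% Wilson interval 14.72% to 14.97%). The members differ at few positions outside the seed, as the next 4 strands show beside let-7f-5p above.
let-7a-5p: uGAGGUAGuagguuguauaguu
let-7c-5p: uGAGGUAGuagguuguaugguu
let-7d-5p: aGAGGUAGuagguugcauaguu
let-7i-5p: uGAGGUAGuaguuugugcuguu

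let-7f-5p and let-7c-5p each differ from let-7a-5p at 1 position, let-7d-5p at 2 and let-7i-5p at 4. Strands this alike may share reads, and how the authors divided them is not given in the sources used here, so single members are less certain than the family total. In that split, let-7f made up 48.5% of the let-7 and miR-98 reads of the CPM library, let-7a 13.8%, let-7i 11.3%, let-7c 10.9% and let-7d 7.21%. In the RPKM library let-7f made up 41.6%, let-7i 31.2%, let-7d 10.7%, let-7g 8.98% and let-7a 0.163%, with let-7a and let-7f each counted from 1 of their 2 hairpins. let-7f led in both libraries, with let-7i next in the RPKM library. let-7e, at 2894 CPM, has no row in the RPKM table and was not analysed there.

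After let-7, the seed families of miR-22-3p (11.2%), miR-27b-3p with miR-27a-3p (11.1%) and miR-191-5p (8.33%) followed in the CPM library. The seed of miR-16-5p held 5.12%, that of miR-146a-5p with miR-146b-5p 4.84%, that of miR-21a-5p 4.83%, that of miR-423-5p 4.63%, that of miR-24-3p 3.70% and that of miR-26a-5p 3.22%. Among these, miR-22, miR-191, miR-21a, miR-423 and miR-24 rested on a single listed strand with a sequence. Strands with no RefSeq sequence have no place in this ranking, miR-30d-5p with 8250 reads among them. By name the miR-30 family held 3.80% of the CPM library, against 3.72% for miR-24. In the CPM library the miR-146 family was split between miR-146a at 55.8% and miR-146b at 44.2% of its reads. In the RPKM library miR-146a made up 99.99% and miR-146b 0.00798%, and miR-146b-5p is also among the rows, described further on, that stood apart from the other libraries of the CPM table. The strand of miR-146b-5p is given for comparison with that of miR-146a-5p above.
miR-146b-5p: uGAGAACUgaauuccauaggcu

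Families were also formed by name, so that members with no RefSeq sequence counted too. The 30 name families, of 90 members, covered 92.6% of the CPM library's reads and 95.9% of the RPKM library's. In the CPM library the let-7 family with miR-98 led at 15.03%, followed by miR-27 and miR-22 at 11.2% each. In the RPKM library miR-22 led at 29.2%, then miR-21 at 19.9%, miR-27 at 9.74%, miR-25/92 at 6.23%, miR-30 at 5.37% and let-7 at 4.50%. miR-10 at 3.73%, miR-146 at 2.77%, miR-221 and miR-222 at 2.68% and miR-125 at 2.08% completed the 10 largest. The families of miR-27 and of miR-221 with miR-222 held similar shares in both libraries, the second of these with 3.22% of the CPM library. The miR-15/16 family held 5.13% of the CPM library but 0.258% of the RPKM library, where Mir16-1 and Mir15a have no row.

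The miR-30 family held 3.80% of the CPM library and 5.37% of the RPKM library, and miR-30d led it in both. miR-30d made up 67.9% of the family in the CPM library and 71.7% in the RPKM library, and miR-30e 13.9% in the CPM library and 12.0% in the RPKM library. The miR-27 family was also split alike in both, with miR-27b at 97.2% of its reads in the CPM library and 93.6% in the RPKM library. In the family of miR-17 and miR-93, targets of which include cell cycle inhibitors, miR-93 made up 55.2% in the CPM library and 55.5% in the RPKM library, and miR-17 23.3% in the CPM library and 22.8% in the RPKM library. In the miR-125 family, by contrast, miR-125a made up 49.8% in the CPM library and 76.1% in the RPKM library, where 1 of the 2 hairpins of miR-125b was counted.

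**Figure D3:**
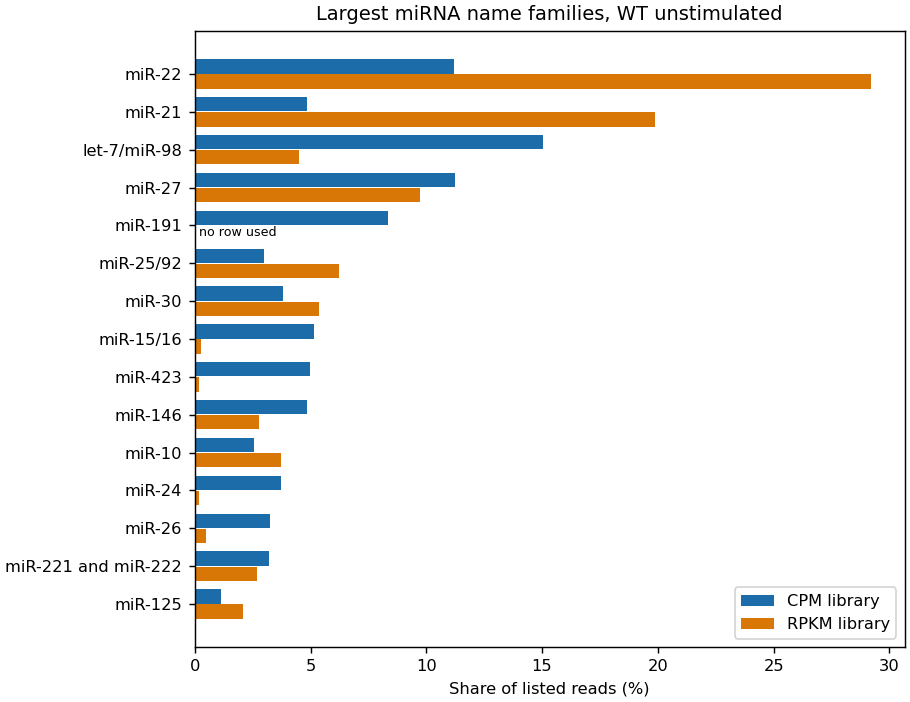
Share of listed reads (%) of the 15 largest miRNA name families in the CPM library and the RPKM library of unstimulated wild-type cells. Bars start at 0 and no error is drawn, since each library is single. miR-22 (29.2%) and miR-21 (19.9%) lead the RPKM library, and let-7 with miR-98 (15.03%) leads the CPM library.

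Hairpins within 10 kb of each other on a strand were taken as a cluster, on GENCODE M21 (GRCm38). There were 55 clusters with 222 of 548 loci. In the CPM table a mature strand made from several loci cannot be placed, so a cluster's share is given from its single-locus members, with the share in brackets if every shared strand came from it. The cluster of Mir23b, Mir27b and Mir24-1 (chr13:63300484-63301275, plus strand) was the largest in both libraries. It held 11.2% of the CPM library (up to 14.9%) and 9.49% of the RPKM library, where 2 of its 3 hairpins have a row, nearly all as miR-27b.

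Mir191 and Mir425 (chr9:108568319-108568861, plus strand) held 8.52% of the CPM library. Mir221 and Mir222 (chrX:19146294-19146971, minus strand), which target the cell cycle inhibitor p27, held 3.22% of the CPM library and 2.68% of the RPKM library. Mir30b and Mir30d (chr15:68337415-68341289, minus strand) held 2.80% of the CPM library and 4.26% of the RPKM library. Neither pair has a member with several loci.

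The miR-17-92 cluster (chr14:115043671-115044506, plus strand), a polycistron known for driving proliferation, was the second largest of the RPKM library at 6.24%, of which Mir92-1 alone was 6.06%. In the CPM library its single-locus members held 0.105%, and up to 2.77% with miR-92a and miR-19b. miR-17 and miR-20a, of the same transcript, stood at 678 CPM and 218 CPM. The level of the cluster thus rested on miR-92a, against far lower values of its other members.

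The cluster of Mir99b, Mirlet7e and Mir125a on chromosome 17 held 3.20% of the RPKM library, where Mirlet7e has no row, and 0.995% of the CPM library. Mir23a, Mir27a and Mir24-2 on chromosome 8 held 1.32% of the RPKM library and 0.597% of the CPM library (up to 4.32%). Mirlet7d, Mirlet7f-1 and Mirlet7a-1 on chromosome 13 held 1.08% of the CPM library (up to 10.4%). Its 0.490% of the RPKM library comes from 2 of the 3 hairpins, since Mirlet7f-1 has no row there, and is not a match for the CPM value. Mirlet7f-2 with Mir98 on chromosome X held 0.144% of the CPM library (up to 7.43%) and 2.00% of the RPKM library. Where let-7f came from, chromosome 13 or X, cannot be told from the CPM table.

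The remaining clusters of the 10 largest held under 1% in both libraries unless multi-copy strands are counted. They were Mirlet7c-2 with Mirlet7b, Mir25 with Mir93 and Mir106b, and Mir30c-1 with Mir30e by the CPM library. By the RPKM library they were Mir30c-1 with Mir30e, the 7 hairpins from Mir450b to Mir322 on chromosome X, and Mir29a with Mir29b-1. Clusters of the CPM library were ranked here by the share of their single-locus members. If ranked by the share in brackets, Mir15b with Mir16-2 (up to 5.01%) and Mir16-1 with Mir15a (up to 4.97%) stood at ranks 5 and 6.

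Hairpins were also placed by what GENCODE M21 annotates around them on the same strand, noncoding transcripts included, a protein-coding host being taken where a hairpin lies within several genes. miRNAs at a single locus held 71.6% of the CPM library, and 59.7% of these reads belonged to hairpins that overlap an exon of another gene, 22.7% to intronic hairpins and 17.6% to hairpins outside other genes. In the RPKM library exonic hairpins held 73.9% of the reads, intronic hairpins 9.61% and those outside genes 16.5%. Mir22 overlaps an exon of Tlcd2 and of its host transcript Mir22hg, and Mir21a overlaps an exon of Vmp1, on chromosome 11 (chr11:86584067-86584158, minus strand). Mir27b overlaps an exon of 2010111I01Rik. Mir423 lies in an intron of Nsrp1, while Mir146 and Mir10a lie in no other gene. Chromosome 11, with Mir22, Mir21a, Mir423, Mir146 and Mir10a, held 41.1% of the single-locus reads of the CPM library and 58.2% of the reads of the RPKM library.

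In the CPM library 5p rows held 61.3% of the reads and 3p rows 37.4%, and 1.26% fell on rows with no arm in the name. Both arms were listed for 116 of 274 miRNA numbers with arm names. Of these, 98 had at least 20 reads over both arms. The 5p arm was the main one in 59 of the 98 and the 3p arm in 31, taking an arm as main where the 95% Wilson interval of its share lay on one side of 50%. The remaining 8 were undecided. The minor arm had a median of 3.28% of the reads, was under 1% in 35 miRNAs and was at 20% or more in 21.

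The most abundant miRNAs used a single arm nearly alone. The miRNAs with most reads over both arms were miR-22, miR-27b, miR-191, let-7f, miR-423, miR-16, miR-21a, miR-24, miR-146a and miR-222. miR-22 had 10 reads of its 5p arm and 35893 of its 3p arm, a 5p share of 0.0279% (0.0151% to 0.0513%). miR-191 used the 5p arm at 99.9% and let-7f at 99.97%, while miR-27b used the 3p arm with a 5p share of 0.62%. The 5p share of miR-24 was 0.669% and that of miR-222 0.831%. miR-16, miR-21a and miR-146a were likewise almost wholly 5p, at 99.98%, 99.7% and 99.98%. miR-423 was the exception of the 10 with a minor arm of 6.60%, or 1052 reads of miR-423-3p beside 14878 of miR-423-5p.

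Other miRNAs used both arms. A hairpin read from a single arm and a hairpin read from both are set side by side, with the mature strands in capitals, Mir22 from chr11:75463716-75463810 and Mir342 from chr12:108658620-108658718, both on the plus strand of GRCm38.
Mir22: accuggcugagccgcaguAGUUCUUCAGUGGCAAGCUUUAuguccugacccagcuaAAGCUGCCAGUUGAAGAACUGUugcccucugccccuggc
Mir342: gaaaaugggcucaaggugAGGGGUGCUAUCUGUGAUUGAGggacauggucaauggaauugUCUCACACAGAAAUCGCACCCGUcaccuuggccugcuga

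miR-342, which lies in an intron of Evl, had 4298 CPM of its 5p arm and 3420 CPM of its 3p arm, a 5p share of 55.7% (53.7% to 57.6%). miR-223, the myeloid miRNA, had 1211 CPM of its 5p arm and 1304 CPM of its 3p arm, a 5p share of 48.1% (44.7% to 51.6%) that was not resolved from 50%. These were the most even miRNAs with at least 100 reads and also the most abundant of the even ones. miR-872, miR-125b, miR-106b, miR-28a, miR-361, miR-130b, miR-674 and miR-340 came next, with 5p shares between 23.2% for miR-674 and 77.2% for miR-340. miR-125b-5p is the strand commonly studied, and its 3p partner made up 35.8% of the reads here. Both arms of miR-151 and of miR-221 were also well represented, with 5p shares of 22.3% and 21.5%.

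**Figure D4:**
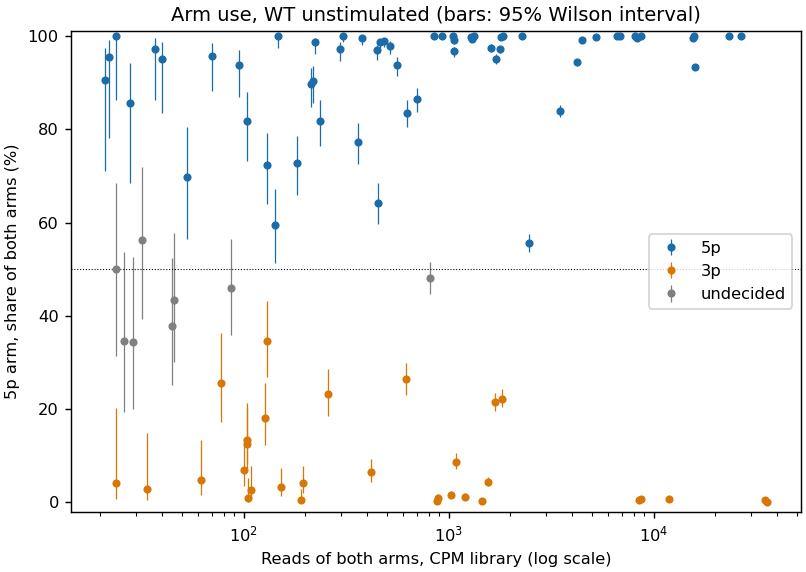
Share of reads from the 5p arm (%) against the reads of both arms (log axis) for the 98 miRNAs of the unstimulated wild-type CPM library with both arms listed and at least 20 reads. Bars are 95% Wilson intervals for counting error, and colours mark the 59 miRNAs that used mostly 5p, the 31 that used mostly 3p and the 8 undecided. The miRNAs with the most reads lie near the top or bottom edge.

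Several rows of the CPM library stood apart from the other 3 libraries of its table. Of 273 mature miRNAs with at least 20 reads over the 4 libraries, 44 (16.1%) were at least 2-fold above the highest of the others, on the CPM + 1 read scale. That minimum includes the reads of the library being compared, so a row high there alone can pass through it. Another 11 (4.03%) were at least 2-fold below the lowest. A difference of at least 4-fold was seen in 22 rows above (8.06%) and 2 below (0.733%). The same 2-fold count gave 4 rows above (1.47%) and 7 below (2.56%) for unstimulated knockout, 6 above (2.2%) and 4 below (1.47%) for wild type with TNF, and 5 above (1.83%) and 8 below (2.93%) for knockout with TNF. The unstimulated wild-type library thus had the most departing rows, mainly above. The SD of the log2 ratio to the median of the rest was 1.497 for the unstimulated wild-type library and 0.988 to 1.03 for the others. As deposited, the median of that log2 ratio over the 273 rows was 0.37 for this library. Median-of-ratios scaling took out a larger shift, with a log2 factor of 0.55 for this library over the median of the other 3. After it 31 rows lay above and 18 below, so that the share of departing rows that lay above was 63.3% in place of 80%. Without the unstimulated knockout library 75 rows lay above and 26 below.

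The departing rows above held 8.77% of the library's reads, most of it from miR-24-3p and miR-146b-5p. These were also the only 2 of its 20 most abundant miRNAs past the 2-fold limit. miR-24-3p had 36949.9 CPM in unstimulated wild type, against 3307 CPM in unstimulated knockout, 1220 CPM in wild type with TNF and 1225 CPM in knockout with TNF. Its value lies far above all of the others, 11.2-fold above the highest. miR-146b-5p had 21393 CPM in unstimulated wild type, against 8841, 6342 and 4861 CPM in the others in the same order. Of the 44 rows, 11 had at least 1000 CPM and 14 had under 100 CPM.

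The 10 that departed most upward by fold were miR-7a-5p, miR-324-5p, miR-326-5p, miR-690, miR-3473a, miR-24-3p, miR-700-3p, miR-3068-5p, miR-877-5p and miR-185-5p. Strands of 6 of them are shown here beside that of miR-24-3p above to let their bases be compared, with miR-3473b and miR-139-3p, which also lay above.
miR-7a-5p: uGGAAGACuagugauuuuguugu
miR-324-5p: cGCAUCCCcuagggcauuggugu
miR-326-5p: gGGGGCAGggccuuugugaaggcg
miR-690: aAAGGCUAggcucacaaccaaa
miR-3473a: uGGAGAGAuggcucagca
miR-3473b: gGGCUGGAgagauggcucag
miR-877-5p: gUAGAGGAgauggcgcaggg
miR-139-3p: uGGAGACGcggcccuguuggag

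miR-7a-5p had 461 CPM in unstimulated wild type, against 5.66, 3.56 and 18.9 CPM in unstimulated knockout, wild type with TNF and knockout with TNF. miR-690 had 1332 CPM against 76.5, 33.8 and 25.9 CPM in the same order, and miR-3473a 613 CPM against 42.5, 10.7 and 11.8 CPM. miR-877-5p, made from an intron without Drosha (a mirtron), had 4008 CPM against 396, 352 and 214 CPM. On the CPM + 1 read scale, these rows lay between 10.0-fold and 21.1-fold above the nearest library. miR-326-5p had 37 reads, against 0, 2 and 0 reads in the others, and miR-700-3p had 20 reads, against 1, 0 and 0. Both passed the minimum of 20 reads only through the unstimulated wild-type library. miR-324-5p had 85 reads against 4, 5 and 9, miR-3068-5p 40 against 3, 5 and 0, and miR-185-5p 36 against 3, 1 and 5.

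Among the rows below, 7 of the 11 had a single read in this library. miR-185-3p had 1 read against 19, 22 and 54 in unstimulated knockout, wild type with TNF and knockout with TNF, and miR-298-5p 1 read against 13, 15 and 35. Such rows sit at the depth limit of the library. miR-182-5p, at 252 CPM against 657, 763 and 1936 CPM, was the row below with the most reads. Its cluster partner miR-183-5p had 28.0 CPM against 65.1, 96.0 and 239 CPM. miR-3060-3p, miR-7688-5p, miR-378d, miR-345-3p, miR-219a-1-3p, miR-3963 and let-7e-3p were the others.

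**Figure D5:**
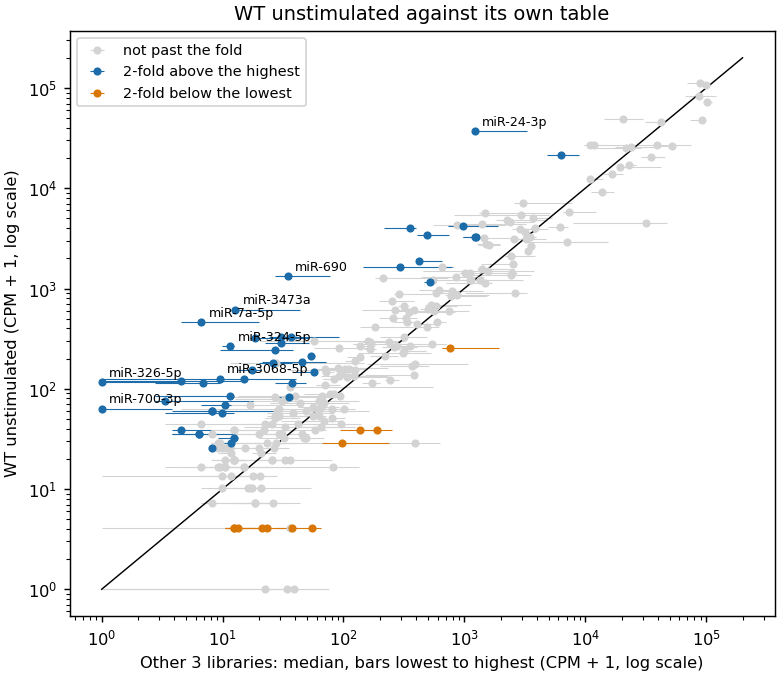
CPM + 1 of 273 mature miRNAs in the unstimulated wild-type library (y axis) against the other 3 libraries of the same table (x axis, point at the median and bar from lowest to highest), both on log axes. Blue marks the 44 rows at least 2-fold above the highest and orange the 11 at least 2-fold below the lowest. miR-24-3p stands apart at the top, and most other departing rows lie below 1000 CPM.

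Arm use was compared from the same reads. Of 97 miRNAs with at least 20 reads over both arms here and in the summed reads of the other 3 libraries, 77 had a 5p share within 10 percentage points of that sum. In 4 miRNAs the main arm was the opposite one from that of the sum. All 4 hold departing rows, since miR-185-5p, miR-326-5p, miR-324-5p and miR-139-3p lay above and miR-185-3p below. Their arm shift is thus not independent of those departures. miR-185 had a 5p share of 97.3% in unstimulated wild type and 8.65% in the sum of the others, miR-326 69.8% in unstimulated wild type and 3.92% in the sum. miR-324 had 81.7% in unstimulated wild type and 24.0% in the sum, and miR-139 18.1% in unstimulated wild type and 71.8% in the sum. The 5p share of miR-139 varied among the others, at 43.3% in unstimulated knockout, 65.5% in wild type with TNF and 82.5% in knockout with TNF, so its main arm was not the opposite one in each of them. For miR-185, miR-326 and miR-324 each of the other 3 libraries had a 5p share of at most 28.1%. The difference went both ways, toward 5p in miR-185, miR-326 and miR-324 and toward 3p in miR-139. The hairpins of miR-324 (chr11:70012043-70012131, plus strand) and miR-326 (chr7:99552269-99552363, plus strand) are given with both arms in capitals, since the main arm of each differed.
Mir324: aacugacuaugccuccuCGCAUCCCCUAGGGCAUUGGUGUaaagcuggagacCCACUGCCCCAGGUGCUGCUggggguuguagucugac
Mir326: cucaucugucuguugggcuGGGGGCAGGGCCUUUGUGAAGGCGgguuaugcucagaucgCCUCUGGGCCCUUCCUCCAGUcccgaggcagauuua

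The RPKM table showed few of these departures. Of 30 miRNA numbers with a row above in the CPM table and a row in the RPKM table, 3 were highest in the unstimulated wild-type library there, 18 lay within the range of the other 3 and 9 were lowest. None of the 3 was 2-fold above the next. Over all 198 miRNA numbers in both tables the library was highest in 25 (12.6%) and lowest in 55 (27.8%). Of 6 numbers with a row below, 4 were lowest in the RPKM table and 2 lay within. miR-24 had 7907 RPKM in unstimulated wild type, against 5237 in unstimulated knockout, 12915 in wild type with TNF and 8775 RPKM in knockout with TNF, within their range. These RPKM values are of Mir24-2 alone, whereas the CPM row of miR-24-3p holds the strand of both loci, so they bear on only 1 of its sources. The hairpin table does not separate arms, so arm use could not be looked at in it.

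The mature strands of the departing rows were set beside those of the rows not past the limit. This was done after their values were seen and is a description. The median GC content was 55.6% over the 37 rows above with a sequence, 54.5% over the 11 below and 47.8% over the 189 within. Strands that begin with UGG numbered 6 of the 37 above (16.2%) and 2 of the 189 within (1.06%). The 6 were miR-7a-5p, miR-3473a, miR-24-3p, miR-7062-5p, miR-139-3p and miR-3535. Strands that begin with G numbered 6 of 37 above (16.2%) and 8 of 189 within (4.23%). The run GGCUCA occurred in miR-24-3p, miR-690, miR-3473a and miR-3473b among the 37, and in miR-484 alone among the 189. miR-3473a and miR-3473b share a run of 16 bases, so they are not independent of each other.

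The labelled cell type was set beside marker miRNAs. All 11 macrophage and myeloid markers had at least 100 CPM, together 27.2% of the CPM library, and the 10 with a row in the RPKM table took 58.0% of that library. miR-223 stood at 2515 CPM and 33103 RPKM, and miR-142a at 13233 CPM and 86062 RPKM. miR-155, which inflammatory signals induce, was low at 177 CPM and 2655 RPKM. These markers are not exclusive to macrophages, as miR-22, miR-21a and miR-24 are made in many tissues. These widely made miRNAs carried most of both sums. miR-22, miR-21a and miR-24 held 11.2%, 4.85% and 3.72% of the CPM library, and miR-22 and miR-21a 29.2% and 19.9% of the RPKM library. miR-223 and miR-142a held 0.252% and 1.32% of the CPM library and 0.729% and 1.98% of the RPKM library. The list was made with earlier results of these data known, so its sum is no test of the label.

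Markers of other cell types took small shares, and some had no read. The 4 lymphoid markers summed to 2.75% of the CPM library and 0.633% of the RPKM library, nearly all of it miR-342 and miR-181, which myeloid cells also make, while miR-150 of mature lymphocytes had 37.4 CPM and 137 RPKM. The erythroid miR-451a and miR-144 have no row in the CPM table and had 6 and 2.00 reads in the RPKM library, whereas miR-486a stood at 3302 CPM and 1683 RPKM. The endothelial miR-126a had 24.9 CPM and 275 RPKM, and the liver miRNA miR-122 34.2 CPM and 2.09 RPKM. Stromal markers summed to 0.00996% of the CPM library and 0.219% of the RPKM library, of which miR-143 was the most. Epithelial markers summed to 629 CPM, with 252 CPM from miR-182 and 156 CPM from miR-200b. Of the neuronal list miR-128, which is not confined to neurons, had 607 CPM, while miR-9 and miR-129 had no read. miR-129 had 85.9 RPKM in the RPKM library, and the 3 neuronal markers with a row summed to 0.0249%. The 3 muscle markers have no row in the CPM table and had 1, 4.91 and 1 reads in the RPKM library (miR-1a, miR-133a and miR-206). Of the listed markers of the imprinted Dlk1-Dio3 cluster miR-127 alone had a row in the CPM table and had no read, and the 6 of the list with a row in the RPKM table summed to 0.00106% of its reads.

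Several of these markers were higher in the unstimulated wild-type library than in the other 3 libraries of the CPM table. Of the 24 markers of other cell types with a row, 14 were highest in this library and 9 (37.5%) were at least 2-fold above the highest of the others, while 2 (miR-182 and miR-183) were at least 2-fold below the lowest. Over all 206 miRNA numbers with at least 20 reads over the 4 libraries, 103 were highest, 41 (19.9%) lay 2-fold above and 9 (4.37%) 2-fold below. No such minimum was set for the 24 markers, so their shares and these are not of like sets. The 9 markers above were miR-150 and miR-342, the near-identical miR-486a and miR-486b, miR-200c, miR-141, miR-203 and miR-205, and the liver miRNA miR-122. Several were scarce, with 18 reads in this library for miR-200c, 12 each for miR-150 and miR-205, 11 each for miR-122 and miR-141 and 5 for miR-203. miR-150 had 37.4 CPM in unstimulated wild type, against 1.18 to 3.56 CPM in the others, and miR-122 34.2 CPM in unstimulated wild type, against 0 to 3.56 CPM. miR-342 had 7718 CPM in unstimulated wild type, against 960 to 2959 CPM in the others. The lymphoid miR-181a and miR-181b went the other way, at 14001 CPM against 14351 to 20791 CPM and 5754 CPM against 6550 to 12329 CPM. All 4 lymphoid markers summed to 27511 CPM in unstimulated wild type, within the 22265 to 36082 CPM of the others. The 24 together summed to 35475 CPM in unstimulated wild type, 40596 CPM in unstimulated knockout, 25683 CPM in wild type with TNF and 30264 CPM in knockout with TNF, so their sum lay within the range of the others. The 2 erythroid markers with a row summed to 6570 CPM in unstimulated wild type, against 1995 to 2631 CPM in the others, and the 9 epithelial markers to 629 CPM in unstimulated wild type, against 929 to 2273 CPM. These erythroid markers are miR-486a and miR-486b, whose 5p rows had 1051 and 1050 reads in unstimulated wild type. Both rows may hold the same reads, so the erythroid sum and the 9 markers above may count them more than once. Of the markers of other cell types, miR-9, miR-129 and miR-127 were at 0 in the unstimulated wild-type library. In the RPKM table the 4 lymphoid markers summed to 35492 RPKM in unstimulated wild type, below the 41154 to 45413 RPKM of the others. The 3 erythroid markers with a row there summed to 1688 RPKM, within the 1036 to 2184 RPKM of the others. miR-122 was highest in unstimulated wild type, at 2.09 RPKM or 3.00 reads, against 0.783 to 1.12 RPKM. All 35 markers of other cell types there summed to 57781 RPKM, within the 50779 to 101910 RPKM of the others. The part of these markers in the rows that stood apart in the CPM library was not tested.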

How the data were processed

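Small RNA libraries were prepared with the Illumina TruSeq small RNA kit, per the labels' protocols, and CASAVA 1.8.2 is named in the submitters' processing notes. The aligner, counter and genome build are not given in the sources used here. In the first table the authors deposited CPM for 452 mature miRNAs, with a lowest row maximum of 5.34 CPM. Whole reads were recovered from the step of its values, and 100% of the low values were whole at a tolerance of 0.1 reads. The second table names no unit, and its deposited values were taken for RPKM, scaled by the authors to hairpin length and library reads, because value times GENCODE M21 hairpin length gave whole reads, at the same tolerance, for 94.9% of low values in the unstimulated wild-type column. GENCODE M21 held 363 of its 371 identifiers. Column names carry the group but no replicate number.

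Shares are of listed reads, with 95% Wilson intervals for counting error. An arm was called main where its interval lay on one side of 50%, with at least 20 reads. Rows departed where CPM + 1 read (3.11 CPM) was at least 2-fold above the highest or below the lowest of the other 3 libraries, with at least 20 reads over the 4. Families were formed by seed (RefSeq, 381 of 452 names) and by name, clusters with neighbours within 10 kb. No test was made, since the tables differ in unit and features and each holds 1 library per group. The labels do not say whether libraries came from separate animals or cultures.

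The miRNAs named are the 20 most abundant of each library, the 10 largest families and clusters, the 10 with most reads and the 10 most even in arm use, the 10 with the largest departure each way, marker lists and the 5 widest gaps between tables each way. Members, lists and rules were chosen with earlier results of these data known. Recovery of reads and departures was tested on simulated data. Python 3.11.15, pandas 2.3.3 and numpy 2.4.6 were used. Alternatives were another fold, minimum of reads, pseudocount, scaling, cluster distance and family definition, and leaving out each library.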

Additional observations from a re-analysis of the deposited data

How the results depend on the processing

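No paired analysis was possible because no result comes from a test, and the columns carry no replicate numbers. Leaving out either library moved the share of the 10 most abundant between 61.1% and 80.1%. The let-7 family held 15.03% of the CPM library by name, in place of 14.8% by seed, and the miR-22 family 26.8% of the RPKM library by deposited values without length. With at least 4-fold required, 22 rows lay above and 2 below. With no minimum of reads 88 lay above and 18 below, and with a minimum of 100 reads 23 and 4. After median-of-ratios scaling 18 lay below, and with a pseudocount of 5 CPM 7 lay below. Leaving out each of the other 3 libraries gave 47 to 75 rows above and 11 to 26 below, the highest counts both without the unstimulated knockout library. All 44 rows above remained in each of these counts except at 4-fold (22), at 100 reads (23) and after scaling (31). The other alternatives for the concentration, clusters and arm counts stayed within 1.5 times. Among the other values for family and cluster shares, 10 moved past their counting interval, 9 of them RPKM family shares taken without length, and 60 did not. Cluster and arm shares of scarce miRNAs are limited by depth, since 1 read was 3.11 CPM.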

Other observations

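Some rows of the CPM table cannot be told apart as miRNAs. miR-199a-3p and miR-199b-3p have an identical mature sequence and are listed with 3 reads each in the unstimulated wild-type library, and let-7a-1-3p and let-7c-2-3p likewise with 2 reads each. The rows of miR-466b-3p, miR-466c-3p, miR-466e-3p and miR-466p-3p had the same reads in all 4 libraries, 6 in unstimulated wild type.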
